A study of Homo sapiens with 32 samples.

Results

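Senescent cells secrete chemokines, which draw in leukocytes, and interleukins, which signal to neighbouring cells. Described here are 10 such genes of the 60107 in the count table, the chemokine genes CXCL14, CXCL1, CXCL2, CXCL8 and CCL2, the interleukin-6 family genes IL6, IL11 and LIF, and the interleukin-1 genes IL1A and IL1B. They were chosen by symbol, as well known secreted factors of senescent cells, when results from these same libraries were already known. RNA was counted by 3′ end sequencing, in which 1 read stands for 1 transcript end, so CPM, the counts scaled to a library total of 1000000, do not grow with transcript length. Levels of different genes are therefore set side by side as tags, apart from differences in how well each 3′ end is caught.

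The 32 libraries come from HEK293T, a transformed human embryonic kidney line, and U2OS, a human osteosarcoma line. Camptothecin (CPT) traps topoisomerase I on DNA, ATM is a kinase that signals DNA damage, and DMSO is the solvent control. By their labels, 4 libraries are U2OS with CPT, 4 U2OS with DMSO, 4 U2OS ATM KO, 4 U2OS WT, 4 HEK293T with CPT, 4 HEK293T ATM KO and 8 HEK293T with DMSO. The drug or the solvent was given for 24 h and followed by 48 h of recovery. For the libraries labelled U2OS ATM KO and U2OS WT, the labels give 72 h of growth and no drug. The study lists a higher CPT dose for U2OS than for HEK293T in its proteomics, and took the RNA from the same cells. The U2OS ATM KO cells were made with CRISPR/Cas9 and grown from picked clones, so a clone and the knockout cannot be told apart. The study describes RNA sequencing of HEK293T cells for an ATM inhibitor and not for an ATM knockout, so libraries 18 to 21 are called here by their label, HEK293T ATM KO, and may be cells given the inhibitor.

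Labels and expression disagreed in 14 of the 32 libraries. Libraries 2 to 8, labelled HEK293T, resembled U2OS over all genes, and libraries 10 to 16, labelled U2OS, resembled HEK293T. Libraries 1 and 17 and those from 18 on resembled their labelled line. The 16 libraries resembling U2OS held 1064 to 2112 CPM of 10 U2OS markers, summed, and the 16 resembling HEK293T held 24.7 to 92.3 CPM. The corresponding sums of 10 HEK293T markers were 147 to 455 CPM and 464 to 803 CPM. These sums nearly touch, and not all of these markers were lower in U2OS. Between U2OS and HEK293T with DMSO (libraries 30 to 33 against 22 to 25), 5 were lower and 3 higher in U2OS, past the cutoffs given below. Depth ranged from 1232674 to 6362433 counts on genes, at which 3 counts amount to between 2.43 and 0.472 CPM. For the libraries numbered below 18, the sets of libraries chosen together with the 10 genes were grouped on these profiles and against the labels, so their levels are given by label and library number and no direction for a treatment is drawn from them. Each comparison among them was fitted within 1 label per group, on the libraries resembling the same line.

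Chemokines bind G protein-coupled receptors, and those with the ELR motif, among them CXCL1, CXCL2 and CXCL8, act on CXCR2 and attract neutrophils. CXCL14 is a chemokine of epithelia and stroma, and CCL2 attracts monocytes through CCR2. IL-6, IL-11 and LIF share the signalling subunit gp130, the product of IL6ST, while IL-1α and IL-1β act on IL1R1 and are classical upstream inducers of the other factors. Transcription of many of these genes is known to depend on NF-κB, AP-1 and C/EBP factors.

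Promoter windows from RefSeq, on GRCh38.p14, were found for 8 of the 10 genes, with no entry for CCL2 and LIF. Each window runs from 250 bases before to 50 bases after the transcription start. CXCL1, CXCL2 and CXCL8 lie on chromosome 4, IL1A and IL1B on chromosome 2, CXCL14 on chromosome 5, IL6 on chromosome 7 and IL11 on chromosome 19. The 250 bases before the start are shown for CXCL14, IL11, CXCL1 and CXCL8, which passed the test in a comparison given here, and for CXCL2, beside its paralog CXCL1, at chr5:135578992-135579241 on the minus strand for CXCL14, chr19:55370464-55370713 on the minus strand for IL11, chr4:73869143-73869392 on the plus strand for CXCL1, chr4:74099196-74099445 on the minus strand for CXCL2 and chr4:73740319-73740568 on the plus strand for CXCL8. IL1A, which also passed the test but at very few counts, is not shown. Capitals mark exact matches on either strand to any of 4 motifs. The κB-like motif was searched as GGNNNTTCC. The AP-1 motif was searched as TGANTCA. For C/EBP the letters were TTGCNNAA. The TATA box was searched as TATAAA.
CXCL14: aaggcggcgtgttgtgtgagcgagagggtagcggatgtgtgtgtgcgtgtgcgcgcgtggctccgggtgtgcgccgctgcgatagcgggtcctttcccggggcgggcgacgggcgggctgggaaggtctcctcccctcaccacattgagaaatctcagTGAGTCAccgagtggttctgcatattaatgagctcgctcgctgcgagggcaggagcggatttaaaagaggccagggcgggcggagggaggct
IL11: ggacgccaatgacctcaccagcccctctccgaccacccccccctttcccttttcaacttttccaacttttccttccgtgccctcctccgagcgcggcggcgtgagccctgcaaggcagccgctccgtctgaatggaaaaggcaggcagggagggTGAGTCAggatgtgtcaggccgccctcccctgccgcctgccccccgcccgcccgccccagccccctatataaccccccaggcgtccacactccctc
CXCL1: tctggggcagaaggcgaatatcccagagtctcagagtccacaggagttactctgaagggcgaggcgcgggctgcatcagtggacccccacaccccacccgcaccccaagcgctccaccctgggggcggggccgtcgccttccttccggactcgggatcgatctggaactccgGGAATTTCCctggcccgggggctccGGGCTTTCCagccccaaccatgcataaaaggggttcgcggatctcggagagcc
CXCL2: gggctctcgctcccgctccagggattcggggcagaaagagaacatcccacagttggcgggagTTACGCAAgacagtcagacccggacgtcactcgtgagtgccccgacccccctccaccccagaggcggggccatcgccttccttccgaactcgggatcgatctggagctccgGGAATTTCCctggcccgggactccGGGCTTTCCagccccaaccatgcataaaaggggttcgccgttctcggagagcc
CXCL8: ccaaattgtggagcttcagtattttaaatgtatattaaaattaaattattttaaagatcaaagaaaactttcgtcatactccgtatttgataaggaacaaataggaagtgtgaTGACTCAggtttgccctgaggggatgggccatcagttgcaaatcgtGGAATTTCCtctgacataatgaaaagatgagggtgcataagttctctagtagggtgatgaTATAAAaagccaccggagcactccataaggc

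The promoter windows of CXCL14 and IL11, the members with the smallest adjusted p with CPT in U2OS, each held 1 AP-1 match and no κB-like match. The AP-1 match lay 92 to 86 bases before the start of CXCL14 and 96 to 90 bases before that of IL11. CXCL1 and CXCL2 each held 2 κB-like matches, the nearer one 53 to 45 bases before the start in both genes. The farther one lay 78 to 70 bases before the start in CXCL1 and 77 to 69 in CXCL2. Their windows were identical at 155 of 300 positions when aligned on the start without gaps. In that count the farther matches are out of step, so it understates the likeness of the windows. CXCL8 held 1 κB-like match, 1 AP-1 match 137 to 131 bases before the start, and a TATA box 31 to 26 bases before it. A κB-like match was present in 4 of the 8 genes, namely CXCL1, CXCL2, CXCL8 and IL6, against 20.1% of all 35116 promoter windows. AP-1 matches were present in 4 of 8 (CXCL14, CXCL8, IL11 and IL1A) against 7.71% of windows, and C/EBP-like matches in 3 of 8 against 10.5%. The letters TATAAA were present in 2 of 8 against 11.5%, in CXCL8 and, 239 to 234 bases before the start, in IL1A. IL1A has 2 windows and was counted if either held a match, whereas the percentages are per window. A match is a stretch of letters and does not show that a factor was bound.

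**Figure D1:**
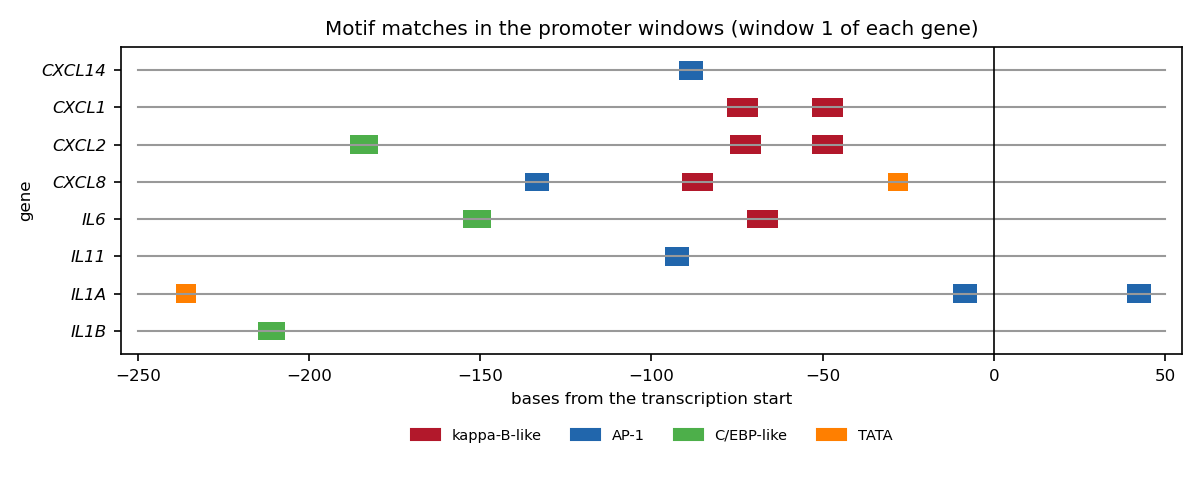
Positions of motif matches in the promoter windows of 8 genes, in bases from the transcription start (vertical line), coloured by motif; for IL1A the first of 2 windows is drawn. The κB-like matches of CXCL1, CXCL2, CXCL8 and IL6 all lie within the 91 bases before the start.

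The 10 genes differed widely in level. CXCL14 gave 37922 counts over all libraries, IL11 491, CCL2 384, LIF 290 and CXCL8 105. CXCL1 gave 33 counts, CXCL2 20, IL1A 12, IL6 8 and IL1B 3. IL11 had a count in all 32 libraries, whereas IL6 had 1 or more in 6 libraries and never more than 3, and IL1B never more than 1. At this depth IL6 and IL1B were therefore at or under the floor of 3 counts throughout, and no fold change is given for them. In U2OS with DMSO CXCL14 was the 24th most abundant of 24450 genes with a count and made up 98.2 to 99.5% of the summed counts of the 10 genes.

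**Figure D2:**
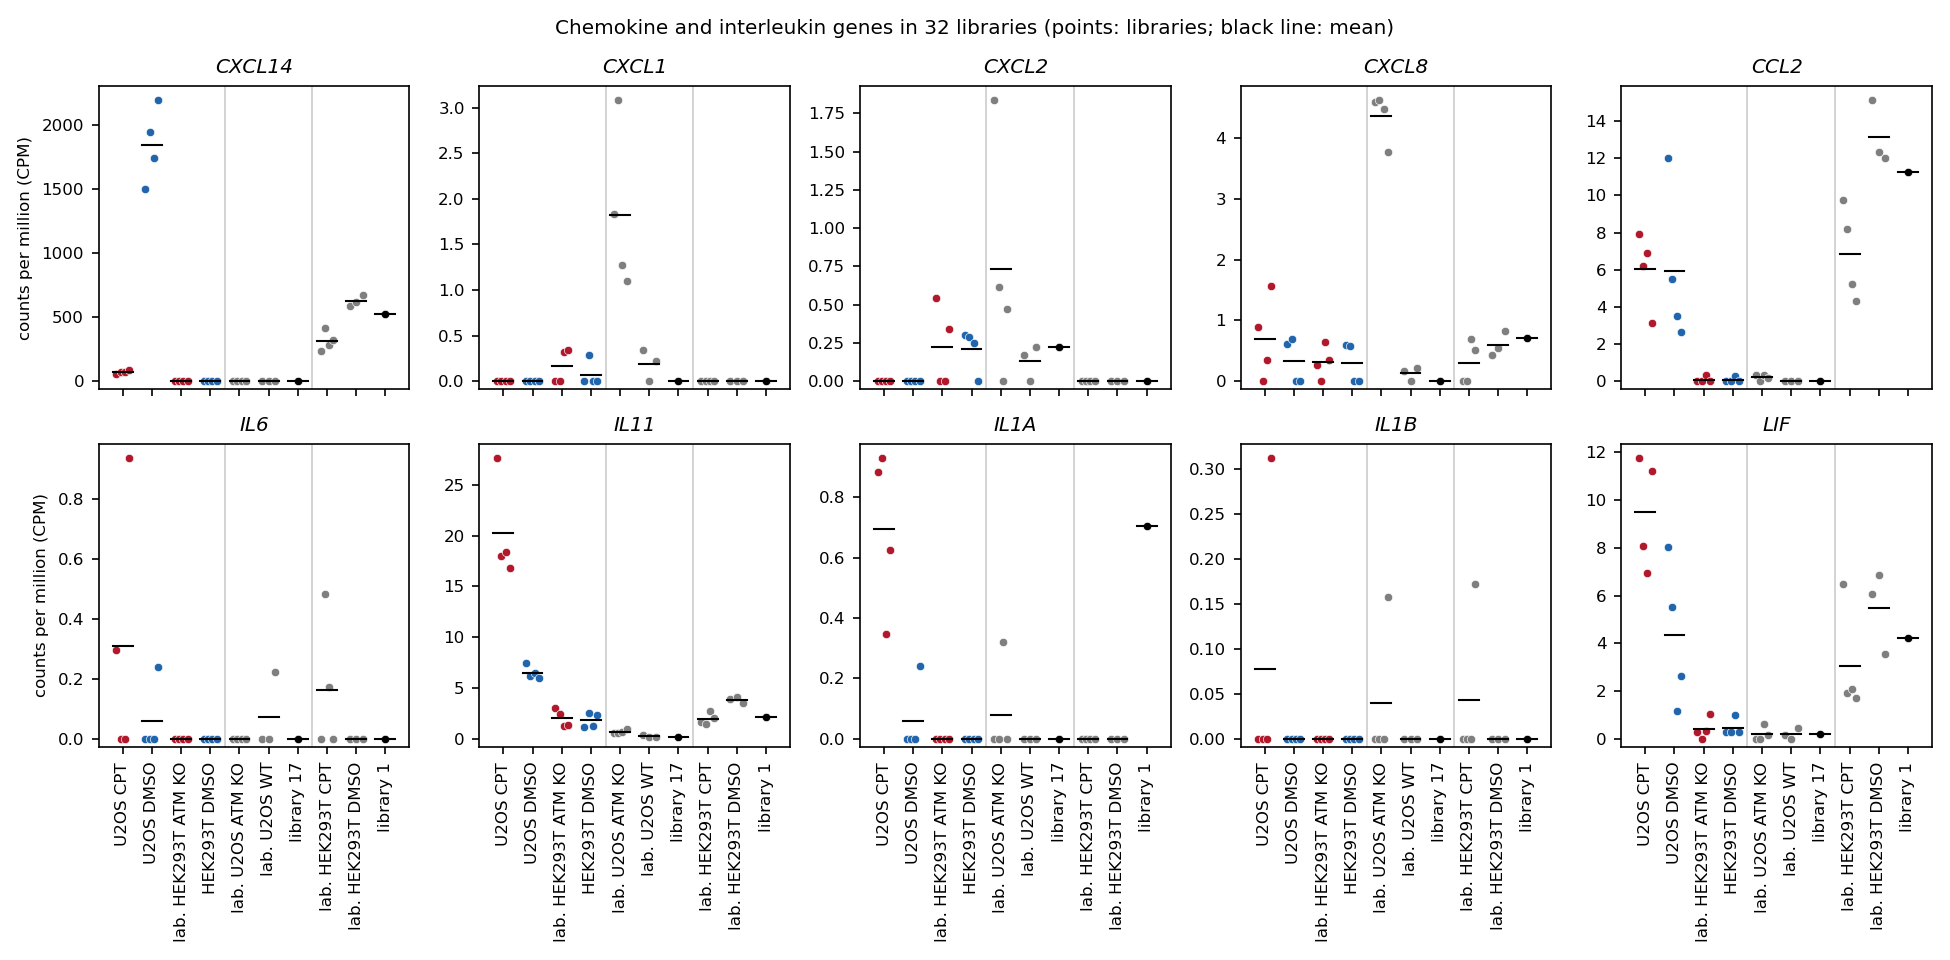
Level of each gene in CPM (vertical axes, a scale for each gene) in every library, grouped by label, with "lab." for sets named by label alone; points are libraries and black lines are means. CXCL14 stands at 1495 to 2192 CPM in U2OS with DMSO against 53.3 to 88.9 CPM with CPT, and CXCL8 at 3.77 to 4.63 CPM in the libraries labelled U2OS ATM KO.

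The first comparison asked how the genes responded to CPT in U2OS cells. CXCL14 fell strongly, IL11 and LIF rose, IL1A rose at very few counts, and CCL2 and CXCL8 did not pass the test. Of the 10 genes, 6 passed the filter on low counts (more than 1 count in 2 or more libraries), of which 3 were higher and 1 lower by edgeR's quasi-likelihood test (Benjamini-Hochberg adjusted p below 0.05 over all genes and a change of more than 1 on the log2 scale). Over all 19080 genes tested, 7.97% were higher and 5.50% lower. The median log2 fold change was 1.34 over the 6 genes and 0.01 over all genes. IL1A passed the filter only through the CPT libraries, and the 10 genes were chosen with results of these libraries known. The median is therefore no evidence of a rise of the genes as a set.

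CXCL14 measured 1495, 1941, 1741 and 2192 CPM in the 4 U2OS libraries with DMSO. With CPT it measured 53.3, 68.9, 71.7 and 88.9 CPM. The groups lay far apart, with every CPT library below 100 CPM. The mean fell from 1842 ± 296 CPM to 70.7 ± 14.6 CPM (SD, n = 4 each). The fitted fold change, on TMM-scaled libraries, was 23.3-fold lower, a log2 fold change of -4.54 (SE 0.16, edgeR adjusted p = 6.19e-20). In bulk RNA, fewer cells with the transcript and less transcript per cell cannot be told apart.

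IL11 encodes a gp130 cytokine of mesenchymal cells that is induced by TGF-β. It measured 27.7, 17.99, 18.4 and 16.8 CPM with CPT and 7.41, 6.19, 6.45 and 6.01 CPM with DMSO. Every CPT library was above every DMSO library, with library 26 the highest. The mean was 20.2 ± 5.01 against 6.51 ± 0.623 CPM (SD, n = 4 each), a log2 fold change of 1.81 (SE 0.20, edgeR adjusted p = 1.74e-08).

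LIF, a gp130 cytokine that acts through LIFR, measured 11.8, 8.06, 6.93 and 11.2 CPM with CPT. With DMSO it measured 8.03, 5.51, 1.17 and 2.64 CPM, and the groups overlapped, since the DMSO library 30 lay above the CPT library 28. The log2 fold change was 1.36 (SE 0.31, edgeR adjusted p = 9.33e-04). The DMSO libraries spread more widely than the CPT libraries, with SDs of 3.05 and 2.37 CPM around means of 4.34 and 9.50 CPM.

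IL1A had 3, 3, 1 and 2 counts in the CPT libraries and 0, 0, 0 and 1 in the DMSO libraries. The ratio of the summed counts, 9 against 1, was 9.71 with an exact 95% interval from 1.35 to 426 that covers counting error only. The fitted log2 fold change was 2.89 (SE 1.04, edgeR adjusted p = 0.0328). This call was lost with DESeq2 (adjusted p = 0.0860) and when any of libraries 26, 27, 30, 31 or 32 was left out (adjusted p from 0.0695 to 0.0810). When 1 library was left out the fitted log2 fold change ran from 2.59 to 4.33. The highest value came without library 33 (edgeR adjusted p = 0.0190), which held the 1 count of the DMSO group, so that the fitted value then depends on the prior count and is no bound. IL1B had 1 count with CPT and none with DMSO, and IL6 had 4 counts against 1.

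CCL2 had 27, 20, 20 and 10 counts with CPT and 39, 16, 12 and 11 with DMSO, and the groups overlapped. Its log2 fold change was 0.25 (SE 0.33, edgeR adjusted p = 0.616). CXCL8 had 3, 0, 1 and 5 counts against 2, 2, 0 and 0, a log2 fold change of 1.32 (SE 0.94, edgeR adjusted p = 0.305), which is not distinguishable at this depth. CXCL1 and CXCL2 had no count in any of the 8 libraries.

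**Figure D3:**
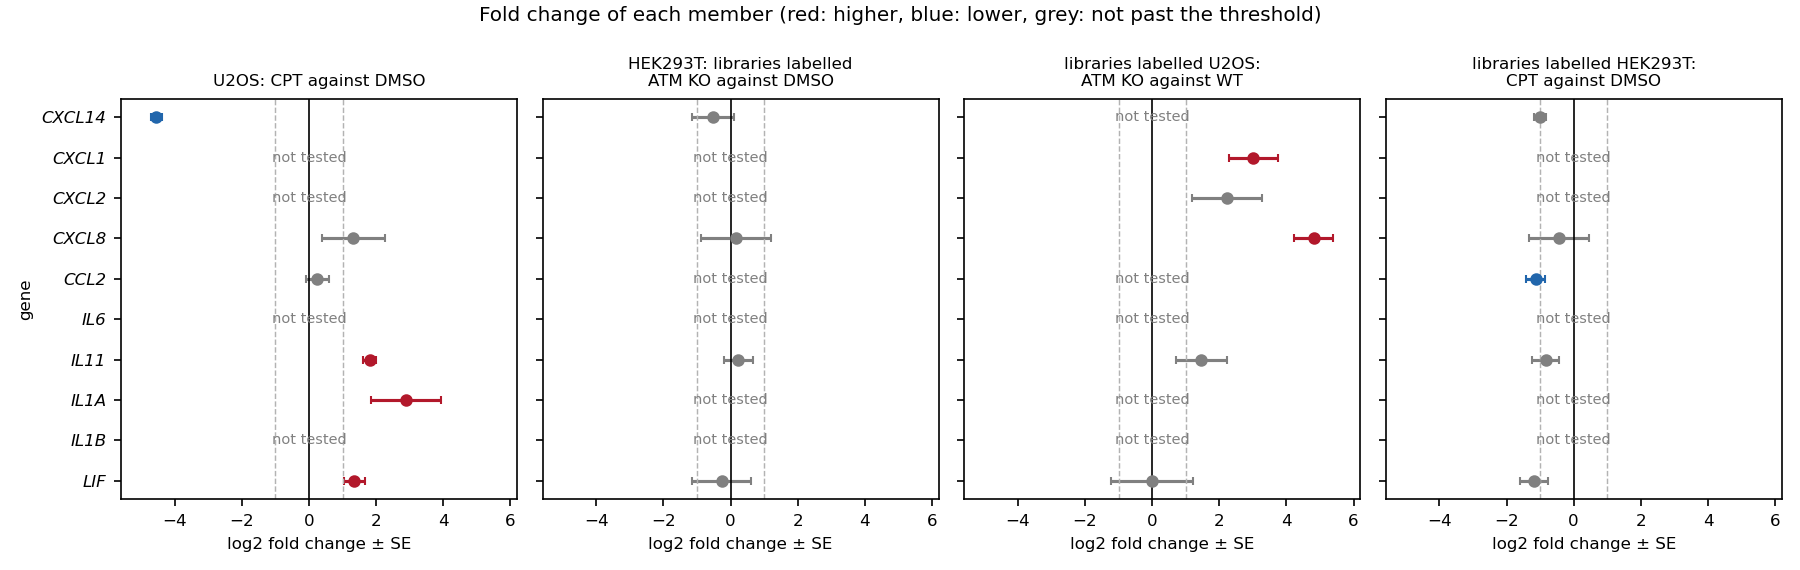
Fitted log2 fold change (horizontal axis) with its standard error for each gene in 4 comparisons; red points are higher, blue points lower, grey points did not pass the threshold, and dashed lines mark a change of 1 on the log2 scale. CXCL14 at -4.54 in U2OS with CPT is the only member below -2, and CXCL8 at 4.82 in the libraries labelled U2OS ATM KO the highest.

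Related genes from lists of the same pathways also changed with CPT in U2OS. Among 27 other chemokines, 12 were tested, of which 4 were higher and 1 lower, with a median log2 fold change of 0.86. CCL4, a chemokine for monocytes and T cells, had 104 counts with CPT and none with DMSO, at least 37.4-fold higher against a floor of 3 counts over the group. CCL5 had 11 counts against 1, a ratio of 11.9 (exact 95% interval 1.73 to 511), and CXCL12 rose by 1.95 on the log2 scale (SE 0.31, edgeR adjusted p = 8.00e-06). CX3CL1, a membrane-bound chemokine, fell by 2.22 (SE 0.32, edgeR adjusted p = 1.38e-06). CCL4 and CCL5 passed the filter on low counts only through the CPT libraries. Entry by that route favours a positive median, which is therefore no evidence of a rise of these chemokines as a set.

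Among 31 other cytokines, 16 were tested and 4 were higher, none lower (median log2 fold change 0.39). These were TNFSF15 (13.1 ± 0.835 against 0.821 ± 0.468 CPM, SD, n = 4 each), EBI3 (34.1 ± 11.1 against 3.10 ± 1.19 CPM), IL32 (23.8 ± 3.53 against 4.15 ± 1.57 CPM) and CSF1 (16.2 ± 2.01 against 5.17 ± 0.798 CPM). EBI3 is a subunit of the interleukins 27 and 35, and CSF1 a growth factor for macrophages. In the interleukin-1 pathway, 2 of 16 tested genes were higher and none lower (median 0.22), namely CASP1, whose protease matures IL-1β, with 27 counts against 4, and NLRP3, its inflammasome sensor, with 20 counts against 6. CASP1 passed the filter on low counts only through the CPT libraries.

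Of 31 transcription factors and feedback genes, all were tested, 6 were higher and 4 lower (median 0.16). ATF3 rose by 2.38 on the log2 scale (SE 0.18, edgeR adjusted p = 2.65e-12). SOCS1 and SOCS3, feedback inhibitors of JAK-STAT signalling downstream of gp130 and interferon receptors, fell by 3.59 (SE 0.44, edgeR adjusted p = 9.25e-08) and 2.49 (SE 0.24, edgeR adjusted p = 6.87e-10). FOS, a subunit of AP-1, fell by 1.83 (SE 0.42, edgeR adjusted p = 8.34e-04).

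Other markers of senescence changed in both directions, 6 higher and 5 lower of 17 tested (median 0.31). MMP3 measured 53.2 ± 18.9 against 0.988 ± 0.508 CPM, GDF15 334 ± 50.9 against 30.3 ± 8.13 CPM and CDKN1A (the inhibitor p21) 401 ± 21.8 against 95.9 ± 6.30 CPM (SD, n = 4 each). These named markers are all among the 6 that rose, and none of the 5 that fell is named here. Leukocyte markers moved with these genes at a few counts: of 8 markers 4 were tested and 2 were higher, ITGAM with 24 counts against 0 and CD68 with 25 against 6, and the summed counts of all 8 were 14 to 26 with CPT and 3 to 7 with DMSO. ITGAM passed the filter on low counts only through the CPT libraries. CD3E, CD14 and LYZ had no count with CPT. Of 10 U2OS markers 5 were higher, at a summed 2003 to 2112 CPM with CPT against 1064 to 1412 CPM with DMSO. The part of leukocyte transcripts and line markers in the result was not tested.

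**Figure D4:**
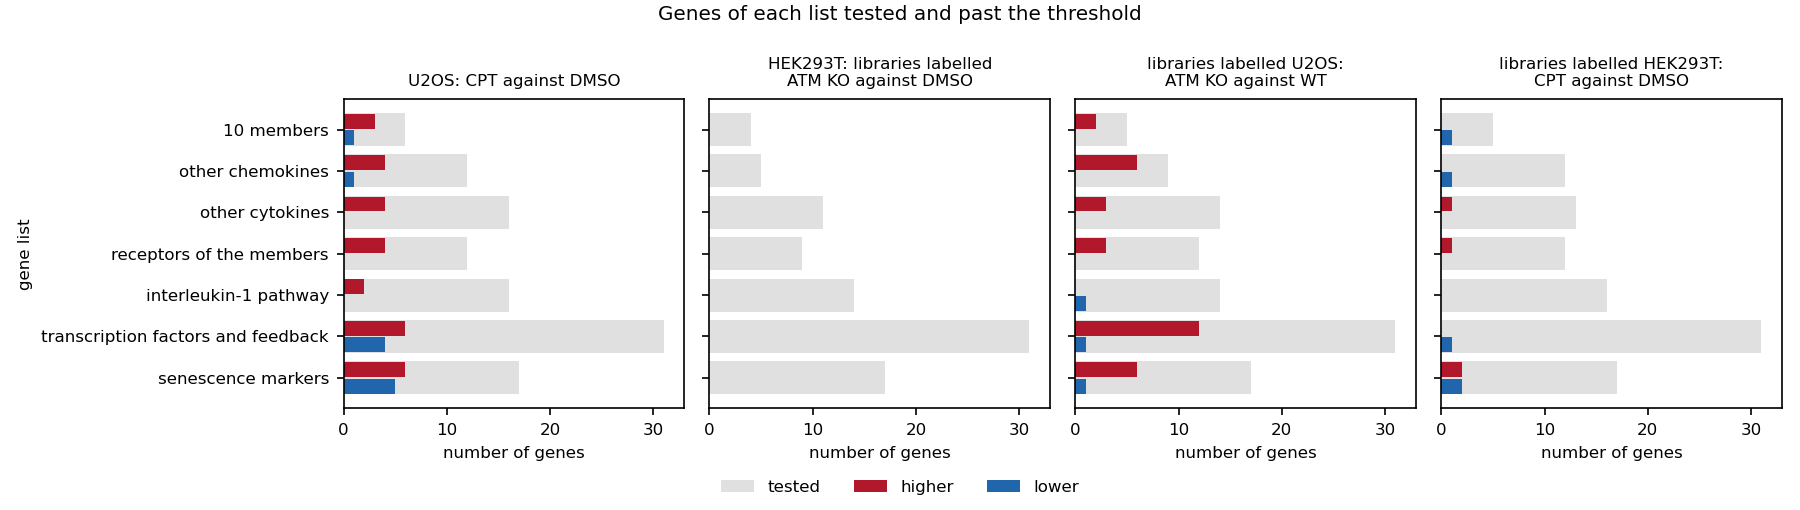
Number of genes tested (grey), higher (red) and lower (blue) for each gene list in 4 comparisons. The list of transcription factors and feedback genes has 6 higher and 4 lower genes with CPT in U2OS, and 12 higher and 1 lower in the libraries labelled U2OS ATM KO.

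Receptors of the same ligands were also counted. Of 16 receptor genes, 12 were tested with CPT in U2OS and 4 were higher, none lower (median log2 fold change 0.53). CXCR2, the receptor of CXCL1, CXCL2 and CXCL8, had 57 counts with CPT against 1 with DMSO, a ratio of 61.5 (exact 95% interval 10.6 to 2471), while CXCR1 had no count in either group. IL6R rose from 6.11 ± 1.18 to 23.7 ± 1.41 CPM and IL1RAP, the shared chain of the IL-1 receptor, from 25.6 ± 0.980 to 60.5 ± 6.24 CPM (SD, n = 4 each). IL1R2, a decoy receptor of IL-1, had 17 counts against 4. CCR2, the CCL2 receptor, had 1 count in each group. CXCR2 passed the filter on low counts only through the CPT libraries, so the receptor median is no evidence of a rise as a set.

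Cell lines differed in receptors as well as ligands. IL6ST measured 244 ± 33.9 CPM and LIFR 112 ± 13.5 CPM in U2OS with DMSO, and IL11RA 41.5 ± 4.44 CPM (SD, n = 4). ACKR3, a scavenging chemokine receptor, had 459 counts in U2OS with DMSO against 4 in HEK293T with DMSO (libraries 22 to 25), and OSMR 563 against 15. CXCR4 went the other way, with 5 counts in U2OS and 424 in HEK293T.

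**Figure D5:**
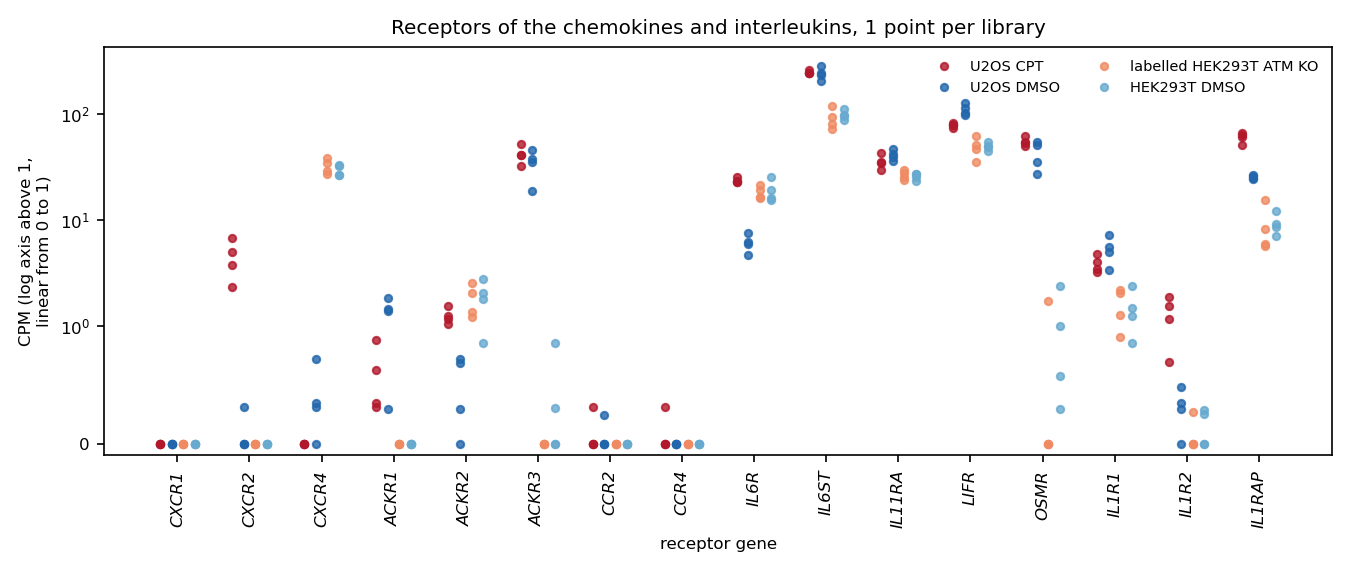
Level of 16 receptor genes in CPM (vertical axis, logarithmic above 1 and linear from 0 to 1) in the U2OS and HEK293T libraries from 18 on, 1 point per library. CXCR2 lies at 2.35 to 6.82 CPM in the 4 U2OS libraries with CPT and at or below 0.309 CPM with DMSO.

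The second comparison set the basal levels of U2OS against those of HEK293T, both with DMSO; it shares its U2OS libraries with the CPT comparison. Of the 10 genes, 5 were tested and 4 were higher in U2OS, none lower, against 21.8% higher and 18.1% lower of 19739 genes. CCL2 and LIF passed the filter on low counts only through the U2OS libraries. The 10 genes were also chosen with results of these libraries known. These counts are therefore no evidence of a higher level of the genes as a set. HEK293T libraries 22 to 25 had 6, 5, 4 and 3 counts of CXCL14, and the U2OS libraries 4842, 5642, 5944 and 9122. The log2 fold change was 10.70 (SE 0.21, edgeR adjusted p = 7.32e-29). CCL2 had 1 count in the 4 HEK293T libraries and 78 in the 4 U2OS libraries, a ratio of 80.8 (exact 95% interval 14.1 to 3232). That 1 count was in library 24. LIF was higher in U2OS by 3.22 (SE 0.55, edgeR adjusted p = 5.61e-06; 3.87 without library 24) and IL11 by 2.03 (SE 0.31, edgeR adjusted p = 8.63e-07). CXCL8 was scarce in both lines, with 4 counts each in the 4 libraries. Among related genes, 6 of 10 other chemokines tested were higher in U2OS and 1 lower (median log2 fold change 3.34, or 2.004 with genes at 0 in 1 group set to their bound), as were 9 and 4 of 16 other cytokines (median 2.05, or 1.62), 7 and 3 of 11 receptors (median 1.52), 2 and 3 of 15 genes of the interleukin-1 pathway (median 0.13), 14 and 3 of 31 transcription factors and feedback genes (median 0.81) and 8 and 3 of 18 senescence markers (median 1.04). Some of these genes passed the filter only through the U2OS libraries, such as CX3CL1 (125 counts against 1) and EBI3 (41 against 0).

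In HEK293T with DMSO, IL11 was the most abundant of the 10 genes at 1.85 ± 0.724 CPM, followed by CXCL14 at 1.28 ± 0.415 CPM (SD, n = 4 each); their SDs overlap. In U2OS with DMSO the order was CXCL14, IL11 (6.51 ± 0.623 CPM), CCL2 (5.93 ± 4.25 CPM) and LIF (4.34 ± 3.05 CPM), and the last 3 did not differ beyond their spread.

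The third comparison concerned libraries 18 to 21, labelled HEK293T ATM KO, against HEK293T with DMSO (libraries 22 to 25, which the cell line comparison also used). Of the 10 genes 4 were tested and none passed, and no gene of the whole table did (0 higher and 0 lower of 18413 tested, edgeR's quasi-likelihood test, with 1017 genes at an unadjusted p below 0.05, none of them a member, and 0 by DESeq2 and 2 by edgeR's likelihood ratio test past the same cutoffs). ATM tags measured 62.2 ± 9.07 against 67.7 ± 11.6 CPM (SD, n = 4 each). IL11 had 11, 8, 4 and 4 counts in the libraries labelled ATM KO and 4, 9, 5 and 8 with DMSO, a log2 fold change of 0.23 (SE 0.43, edgeR adjusted p = 0.977). CXCL14 had 4, 0, 1 and 6 counts against 6, 5, 4 and 3, a log2 fold change of -0.51 (SE 0.63, edgeR adjusted p = 0.967). CXCL8 and LIF gave 0.16 (SE 1.06) and -0.27 (SE 0.88) on the same scale. These errors are wide because all 4 genes had few counts, and a p above the threshold does not show equal levels. None of the other lists held a gene past the threshold, among them 31 transcription factors and feedback genes and 17 senescence markers tested.

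The fourth comparison was between libraries labelled U2OS ATM KO (10, 12, 14 and 16) and U2OS WT (11, 13 and 15), all of which resembled HEK293T. ATM tags did not separate them, at 35.0 ± 5.52 CPM (n = 4) against 27.3 ± 6.56 CPM (n = 3), and a 3′ tag need not report a disrupted reading frame. CXCL8 and CXCL1 were higher in the libraries labelled ATM KO. Of the 10 genes 5 were tested, 2 were higher and none lower, against 8.67% higher and 4.63% lower of 19271 genes. The median log2 fold change was 2.23 over the 5 genes and 0.03 over all genes. CXCL8, CXCL1, CXCL2 and IL11 passed the filter on low counts only through the libraries labelled ATM KO. Entry by that route favours a positive median, which is therefore no evidence of a rise of the 10 genes as a set.

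CXCL8 had 15, 15, 14 and 24 counts in the libraries labelled ATM KO. It had 1, 0 and 1 in those labelled WT and 0 in library 17, which is labelled HEK293T with DMSO. The ratio of summed counts, 68 against 2, was 34.8 (exact 95% interval 9.26 to 293), and the fitted log2 fold change 4.82 (SE 0.58, edgeR adjusted p = 4.28e-07). CXCL1 had 6, 10, 4 and 7 counts against 2, 0 and 1, a ratio of 9.20 (exact 95% interval 2.83 to 47.4) and a fitted log2 fold change of 3.02 (SE 0.73, edgeR adjusted p = 0.00238). For both genes every library labelled ATM KO was above every one labelled WT. Without library 11, which held 2 of the 3 WT counts, the log2 fold change of CXCL1 was 3.77 (edgeR adjusted p = 0.00566).

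CXCL2, whose promoter shares its pair of κB-like matches with CXCL1, had 6, 2, 0 and 3 counts against 1, 0 and 1, a log2 fold change of 2.23 (SE 1.04, edgeR adjusted p = 0.100), and the groups overlapped. CXCL1 and CXCL2 are close paralogs, and how reads shared between them were counted is not given in the sources used here. IL11 had 2, 2, 2 and 6 counts against 2, 1 and 1, a log2 fold change of 1.46 (SE 0.76, edgeR adjusted p = 0.145). CXCL14 had at most 2 counts in any of these 7 libraries, and CCL2, IL6, IL1A and IL1B at most 1. With library 17 added to the controls, the set chosen with the genes, the log2 fold changes of CXCL8 and CXCL1 were 5.11 and 3.34. With library 1, the remaining library labelled U2OS WT, included instead, they were 4.35 (edgeR adjusted p = 0.0109) and 3.16 (edgeR adjusted p = 0.0450).

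Other chemokines were also higher in these libraries, 6 of 9 tested and none lower. Their median log2 fold change was 2.96, or 1.91 with genes at 0 in 1 group set to their bound. CXCL10, CXCL11, CX3CL1, CCL20 and CCL26 had at most 1 count over the group labelled WT. They passed the filter only through the libraries labelled ATM KO. CXCL11, an interferon-induced ligand of CXCR3, had 45 counts against 0, at least 15.3-fold higher. CCL20 had 27 against 0, at least 9.20-fold higher, and CXCL10 11 against 0, at least 3.75-fold higher. Of the 31 transcription factors and feedback genes 12 were higher and 1 lower (median 0.75), with FOS higher by 3.70 (SE 0.43, edgeR adjusted p = 2.64e-07) and JUNB by 2.55 (SE 0.25, edgeR adjusted p = 1.22e-08). Of 14 other cytokines tested 3 were higher (median 0.82), of 12 receptors 3 (median 0.40) and of 14 genes of the interleukin-1 pathway none, with TAB1 lower (median 0.11). Senescence markers had 6 higher and 1 lower of 17 tested (median -0.12), among them GDF15 at 70.5 ± 19.97 against 11.6 ± 12.7 CPM and CDKN2B at 26.9 ± 2.14 against 4.61 ± 1.64 CPM. The leukocyte marker CD68 had 14 counts against 0, and CD3E none. Markers of U2OS moved with these genes, 3 of 9 tested being higher and none lower (median 1.80, or 1.27 with genes at 0 in 1 group set to their bound). Mean levels were 32.3 against 4.69 CPM for ANXA1, 40.5 against 19.4 for CAV1, 4.90 against 3.48 for LGALS3 and 2.19 against 0.634 for RUNX2. AXL, CD44, CRYAB, S100A6, TGFBI and THBS1 each had a mean of at most 0.782 CPM under the ATM KO label and 0.67 CPM under the WT label. The 10 U2OS markers summed to 73.8 to 92.3 CPM in the libraries labelled ATM KO and 24.7 to 32.7 CPM in those labelled WT. Of 10 HEK293T markers, all tested, 3 were also higher and none lower (median 0.25). The HEK293T markers summed to 652 to 774 CPM against 612 to 803 CPM, with overlap. The share of a library's counts in the summary rows, which name no gene, was 17.02 to 19.8% against 10.9 to 12.4%. The part of these differences in the result was not tested.

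The fifth comparison was between libraries labelled HEK293T CPT (2, 4, 6 and 8) and HEK293T DMSO (3, 5 and 7), all of which resembled U2OS. ATM tags did not separate these groups either, at 50.9 ± 11.7 CPM (SD, n = 4) against 61.8 ± 7.64 CPM (SD, n = 3). The log2 fold change of ATM was -0.31 (SE 0.19, edgeR adjusted p = 0.345). CCL2 was lower in the libraries labelled CPT, and CXCL14 lay at the fold cutoff. Of the 10 genes 5 were tested, none was higher and 1 lower, against 2.32% higher and 2.14% lower of 18515 genes. The median log2 fold change was -0.998 over the 5 genes and 0.03 over all genes. The 10 genes were chosen with results of these libraries known, so the median is no evidence of a fall of the genes as a set.

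CCL2 measured 9.73, 8.18, 5.21 and 4.30 CPM in the libraries labelled CPT and 15.1, 12.3 and 11.997 CPM in those labelled DMSO. The groups did not overlap, and library 1, labelled U2OS WT, lay at 11.3 CPM. The log2 fold change was -1.13 (SE 0.28, edgeR adjusted p = 0.00694). The call was lost without library 8 (-0.91) or library 3 (-0.99), which left changes within the fold cutoff.

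CXCL14 measured 232, 414, 278 and 321 CPM against 588, 619 and 670.5 CPM, with no overlap, and 526 CPM in library 1. The log2 fold change of -0.9976 (SE 0.17, edgeR adjusted p = 1.09e-04) fell just short of the fold cutoff of 1, which it passed without library 3 (-1.002) or library 4 (-1.22). All 8 libraries, whatever their label, lay between the U2OS libraries with DMSO and those with CPT described above. LIF had a log2 fold change of -1.19 (SE 0.42, edgeR adjusted p = 0.0651) and passed without library 2 (-1.53) or library 7 (-1.47), and IL11 one of -0.84 (SE 0.41, edgeR adjusted p = 0.217). IL11 measured 1.62, 1.44, 2.78 and 2.06 CPM against 3.89, 4.11 and 3.54 CPM, without overlap. CXCL8 had 0, 0, 4 and 3 counts against 1, 2 and 3.

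With all 8 libraries labelled HEK293T DMSO as controls, which mix both lines, no member passed and the log2 fold change of CCL2 was 0.49 (edgeR adjusted p = 0.813). With library 1 added to libraries 3, 5 and 7, the set chosen with the genes, the log2 fold changes were -1.11 for CCL2, -0.97 for CXCL14, -1.15 for LIF and -0.75 for IL11. Few related genes passed: CXCL12 was lower (1 of 12 other chemokines, median log2 fold change -0.17), CLCF1, a further gp130 cytokine, higher (1 of 13 other cytokines, median 0.24), IL6R higher (1 of 12 receptors, median 0.30), JUNB lower (1 of 31 transcription factors and feedback genes, median -0.11) and none of 16 genes of the interleukin-1 pathway (median -0.03). Senescence markers had 2 higher and 2 lower of 17 tested (median -0.34), with GDF15 at 75.1 ± 12.98 against 33.8 ± 1.94 CPM and CDKN2B at 0 counts against 17, at least 8.76-fold lower.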

How the data were processed

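The authors deposited a single table holding raw counts of each gene in 32 libraries, prepared using the QuantSeq 3′ mRNA FWD kit and its vendor's UMI pipeline, per the study's methods; aligner, genome build and annotation are not given in the sources used here, nor is whether counting used strand. The 5 summary rows (10.9 to 40.6% of a library's counts) and 92 spike-in rows were left out. Symbols came from a gene name table (56104 identifiers matched), and groups and library numbers from GEO's labels. The study names 4 independent biological repeats per condition.

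Genes exceeding 1 count in 2 or more libraries of a comparison were fitted with edgeR 4.0.16 (TMM, quasi-likelihood test, R 4.3.3) over the whole table, Benjamini-Hochberg adjusted; genes were called at an adjusted p below 0.05 and a log2 change over 1. The fit was tested on simulated data. The study's own design used edgeR's likelihood ratio test, tried here as an alternative with DESeq2 1.42.0, RLE factors, other filters, other controls and each library left out. No replicate pair was at counting noise (lowest chi-square per gene 1.92). Depth limits precision: 3 counts amount to 0.472 to 2.43 CPM, and intervals and floors cover counting error only.

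The members, the gene lists and the comparisons were chosen with earlier results of these data known. All 10 members are described in each comparison, and from each other list at most 4 called genes with the largest log2 change. Motifs were searched in RefSeq promoter windows (GRCh38.p14).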

Additional observations from a re-analysis of the deposited data

Results flagged for a closer look

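In 6 of 27 combinations of gene and label group with 4 to 8 libraries, 1 library stood apart from the others by Dixon's criterion, which chance meets in about 1 of 20. Library 1 did so in 3 of them: among the libraries labelled U2OS WT it had 526 CPM of CXCL14 where the others had 0 to 0.444, 11.3 CPM of CCL2 where the others had 0, and 4.23 CPM of LIF where the others had 0 to 0.444. It is the library of that label that resembled U2OS, and it was left out of the comparison within that label. Library 2, labelled HEK293T CPT, had 6.49 CPM of LIF (8 counts) against 1.72 to 2.08 in the other 3. Library 26, U2OS with CPT, had 27.7 CPM of IL11 against 16.8 to 18.4. Library 16, labelled U2OS ATM KO, had 0.943 CPM of IL11, which is 6 counts, against 0.612 to 0.640.

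IL11 moved in opposite directions in the pair of comparisons labelled CPT against DMSO. Its log2 fold change was 1.81 in U2OS and -0.84 in the libraries labelled HEK293T, with no overlap between groups in either, and the difference between the comparisons was not tested. The second change did not pass the test on its own (edgeR adjusted p = 0.217), and its libraries resembled U2OS rather than their label.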

How the results depend on the processing

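Of 11 member changes past the threshold, 9 stayed past it under every alternative that gave a value: CXCL14, IL11 and LIF with CPT in U2OS, CXCL8 and CXCL1 in the libraries labelled U2OS ATM KO, and CXCL14, CCL2, LIF and IL11 between the lines. IL1A with CPT and CCL2 in the libraries labelled HEK293T CPT did not. Stricter filtering by filterByExpr left 1 member past the threshold in the libraries labelled U2OS ATM KO (2 in the main fit) and 2 between the lines (4), because fewer genes were tested. In the libraries labelled HEK293T CPT, 1 member passed in the main fit. There 2 passed with edgeR's likelihood ratio test, 2 with DESeq2, 2 with RLE, 2 without a filter, 2 without the fold cutoff, 2 with summary counts kept and 2 with library 1 added, against 0 with all 8 DMSO libraries and 0 to 2 when 1 library was left out. The member added was CXCL14 with DESeq2, RLE, summary counts and no fold cutoff, and LIF in the other 3 alternatives.

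Signs turned for members with few counts or mixed controls. With all 8 DMSO libraries, which hold both lines, the libraries labelled HEK293T CPT gave 0.42 for CXCL14, 0.37 for CXCL8, 0.49 for CCL2 and 0.37 for LIF on the log2 scale, and those labelled HEK293T ATM KO gave -0.30 for CXCL8 and -0.35 for IL11. LIF in the libraries labelled U2OS ATM KO (-0.01) gave 0.0040 with DESeq2, 0.0207 with RLE and -0.56 to 0.29 when 1 library was left out. Leaving out 1 library gave -0.0024 to 0.81 for CCL2 with CPT in U2OS, -0.37 to 0.68 for CXCL8, -0.0547 to 0.43 for IL11 and -0.44 to 0.10 for LIF in the libraries labelled HEK293T ATM KO, and -0.32 to 0.77 for CXCL8 between the lines. None of these passed the threshold.

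Counts over all genes moved by more than 1.5 times under filterByExpr (1652 against 2569 with CPT in U2OS, 1615 against 2562 in the libraries labelled U2OS ATM KO, 5090 against 7872 between the lines), without the fold cutoff (6093, 6178 and 12259, and 1934 against 826 in the libraries labelled HEK293T CPT), and with library 1 included among the libraries labelled U2OS WT (631). Against 0 genes in the libraries labelled HEK293T ATM KO, 2 passed with the likelihood ratio test, 2 without a filter, 1 without the fold cutoff, 1 with all libraries in 1 fit, 1 without library 18 and 14 without library 21. The cause was not tested. No paired analysis was possible because the labels do not say which libraries of different groups came from the same repeat.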
